A study of Vitis vinifera with 26 samples.

Results

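Grape clusters (Vitis vinifera, cultivar 'Pinot Noir') that had been exposed to 1-MCP were compared between 8 and 7 weeks after anthesis (WAA). The comparison took every 1-MCP library of these weeks, 5 at 8 WAA (replicates 1, 2, 3, 4 and 5) and 5 at 7 WAA (replicates 1, 2, 3, 4 and 12), which are 10 of the 26 libraries of the series. 1-MCP (1-methylcyclopropene) was given on 8-year-old field plants at 5 ppm for 24 h in a closed bag around the cluster, at 6, 7 or 8 WAA, and clusters were taken after 24 h. Each treated group was therefore exposed in its own week, so the 8 WAA group is not the 7 WAA group 1 week later. Mock-treated clusters of the same plants, with the same numbers of libraries, were the controls at 8 and 7 WAA, and 3 treated and 3 control libraries came from 6 WAA. Which libraries are controls rests on the source names and titles, because the description label calls all of them treated. The libraries come from berry tissue with no further dissection.

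1-MCP occupies the ethylene receptors and so blocks ethylene perception. The grape berry is classed as non-climacteric, but ethylene is one of the hormones that act around véraison, the onset of ripening, when berries soften, take up sugar, lose chlorophyll and, in red cultivars, colour their skin with anthocyanins. Abscisic acid is the hormone most tied to this transition, and tannin and other flavonoid synthesis of the green berry declines as it proceeds.

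The deposited values are not read counts. Within a library they are multiples of 1 constant step, and a value divided by that step is called a unit here. What a unit counts is not given in the sources used here, and the number of reads is unknown. The 10 libraries held 21369 to 23485 units, the highest locus of any of them had 23 units, and 62.7% to 67.3% of the detected loci (at least 0.5 units) had exactly 1 unit within 0.01. Most of what can change between 2 weeks on such a scale is therefore whether a locus is present or listed at 0, and units are not compared between loci. A locus is an assembled transcript locus of the deposited tables, named by its Vitis reference identifier, or by its assembly number (XLOC) where it has none or several. Chromosome intervals are printed as deposited, can be shared by neighbouring loci, and their genome build is not given in the sources used here. The files pair no identifier with a gene name, so no gene name or role is attached to single identifiers. Where an identifier is carried by more than 1 locus, the assembly number of the locus is added.

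Treated libraries of 8 WAA averaged fewer units and fewer detected loci than those of 7 WAA, but neither measure passed its adjusted test. The library total was 22524, 21369, 21497, 21522 and 22611 units at 8 WAA, against 22261, 23485, 23116, 22495 and 23356 units at 7 WAA. The groups overlapped, as 2 libraries of 8 WAA lay above the lowest of 7 WAA. Totals averaged 21905 ± 609 units at 8 WAA and 22943 ± 539 units at 7 WAA (SD, n = 5 each), a difference of -1038 units or -4.52%. The exact two-sided permutation test gave p = 0.0476, and 0.0635 after Benjamini-Hochberg adjustment over the 2 library measures. Without any 1 of 8 WAA replicates 2, 3 and 4 or 7 WAA replicates 2, 3 and 12 the unadjusted p was 0.0952. Detected loci numbered 14399 ± 232 at 8 WAA and 14902 ± 424 at 7 WAA, a difference of -503.2 with exact p = 0.0635. Without 7 WAA replicate 4, which had 14227 detected loci, the difference was -672.05 with exact p = 0.0159. Mock-treated clusters differed by -1060.2 units and -670.8 loci between the same weeks. In bulk tissue, fewer cells of a type and less RNA per cell cannot be told apart.

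Between 8 and 7 WAA, 61 loci of treated clusters passed the threshold, 37 lower and 24 higher at 8 WAA. At nearly all of them the difference was one of presence: 35 of the 37 lower loci were under 0.5 units in all 5 libraries at 8 WAA and reached it in all 5 at 7 WAA, and 21 of the 24 higher loci showed the opposite. The test was limma on log2(units + 1) over 16529 loci with a Benjamini-Hochberg adjusted p threshold of 0.05, so 0.369% of tested loci were called, 0.224% lower and 0.145% higher, against 1322 at an unadjusted p under 0.05. Groups did not overlap at any of the 61, and the log2 difference ran between -1.85 and -0.42 for the lower and between 0.58 and 2.32 for the higher loci. Over all 33229 loci, treated groups did not overlap at 46 that were lower and 32 that were higher at 8 WAA, so not every such locus was called. On this scale a locus at 0 in a whole group has a difference that depends on the 1 added unit, so its size is no fold bound. Over all loci, 39 (0.236% of those tested) were present in no treated library of 8 WAA and in every one of 7 WAA, and 22 (0.133%) were present in every library of 8 WAA and in none of 7 WAA.

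The count of calls depended on single libraries. Without replicate 4 of 7 WAA it was 195 (160 lower, 35 higher), without replicate 1 of 8 WAA it was 113 (76 lower, 37 higher), and without replicate 12 of 7 WAA it was 96 (60 lower, 36 higher). Of the 61 calls, 21 had a residual SD under 0.05, because nearly every library of a week had the same whole value. At such loci the p-value of limma measures no spread between libraries, and on simulated data without any change the same test also made calls, most of them at such loci. The other 40 calls, 29 lower and 11 higher, rested on values that varied within at least 1 week, with a smallest limma adjusted p of 0.000524. At most of these 40, every library of the other week was at 0, so their spread came from 1 week alone. For 1 locus alone an exact permutation test of 5 against 5 libraries cannot go below p = 0.00794, so every call rests on the spread that limma pools over loci.

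**Figure D1:**
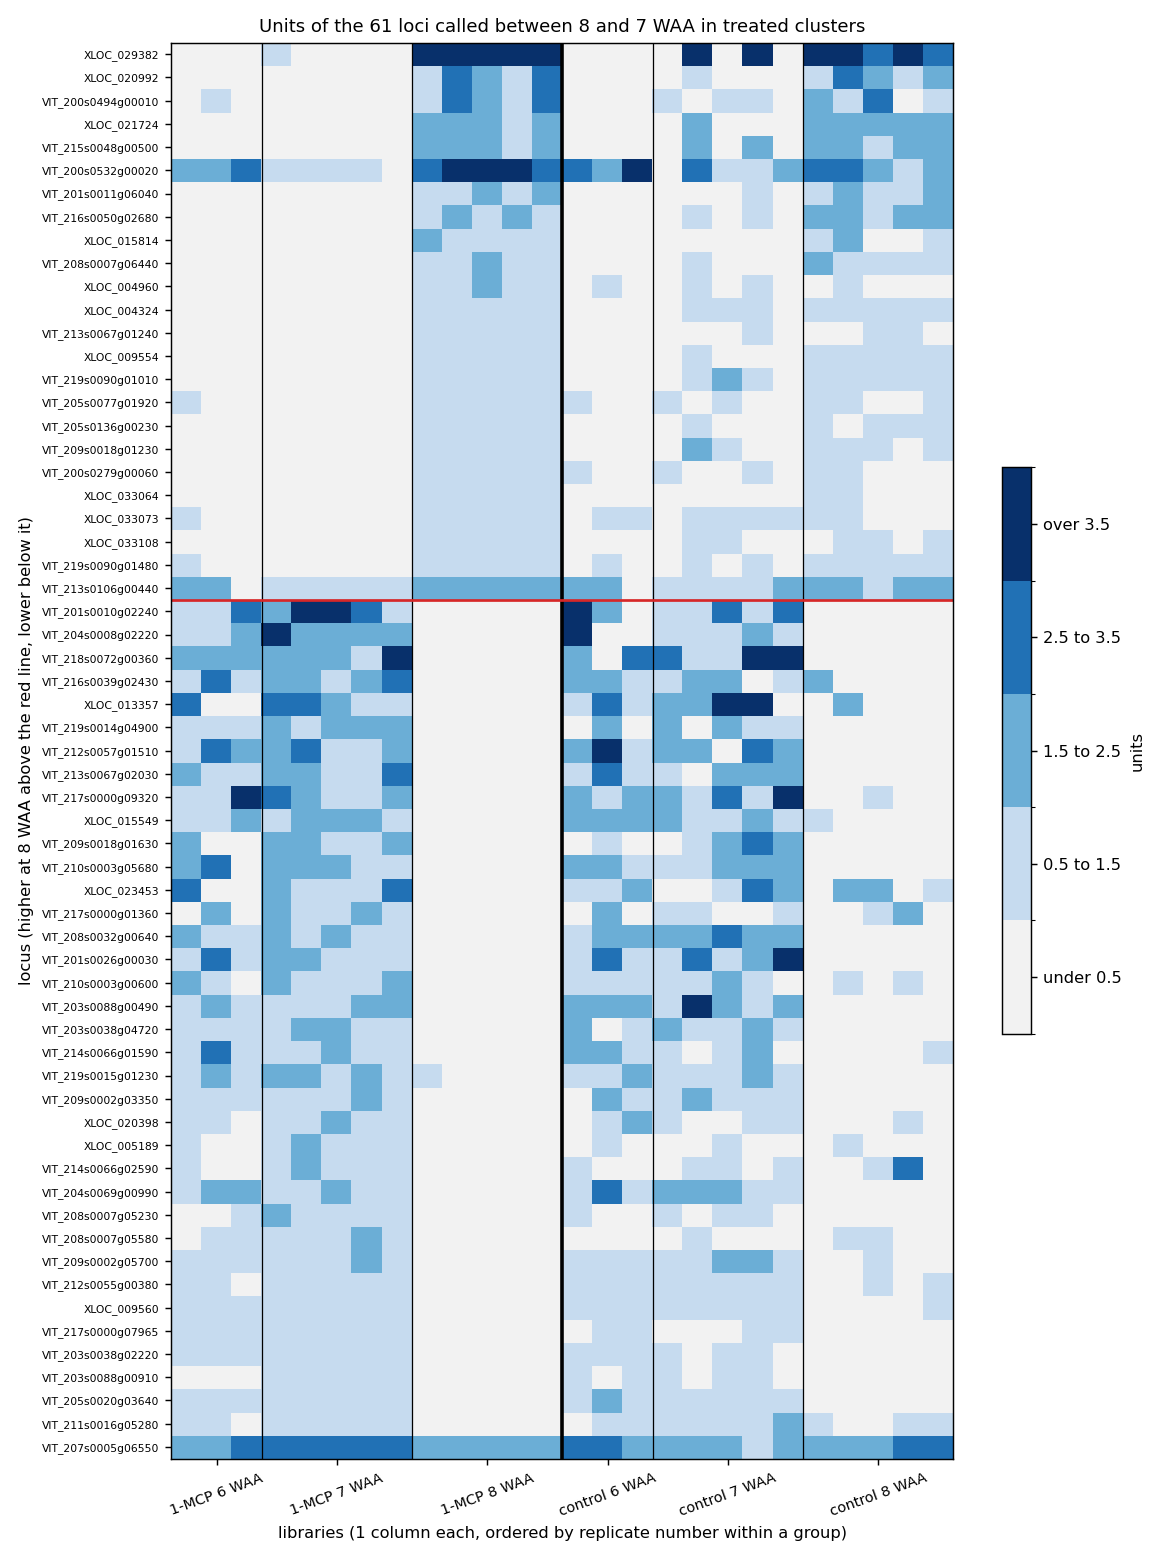
Units of the 61 called loci (rows) in all 26 libraries (columns), 1-MCP-treated groups left of the thick line and control groups right of it, each at 6, 7 and 8 WAA. Above the red line are the 24 loci called higher at 8 WAA in treated clusters and below it the 37 called lower; most rows change between at least 1 unit and under 0.5 units, and many rows change alike in the control columns.

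Among the loci that were lower at 8 WAA, VIT_201s0010g02240 (chromosome 1, 19206275 to 19219923) had the largest log2 difference. It was listed at 0 in all 5 treated libraries of 8 WAA, against 1.80, 3.70, 3.70, 3 and 1.42 units at 7 WAA. The log2 difference was -1.85 ± 0.19 (SE), with a limma adjusted p of 0.00332. VIT_204s0008g02220 (chromosome 4, 1823201 to 1829184) was likewise at 0 in every library of 8 WAA, against 5, 2, 2, 2 and 2 units at 7 WAA (log2 difference -1.78, limma adjusted p = 0.00455). Both were also called lower in controls, where every library of 8 WAA was at 0 as well. Control values at 7 WAA were 1, 1, 3, 1 and 3 units for VIT_201s0010g02240. They were 1, 1, 1, 2 and 1 units for VIT_204s0008g02220. In treated clusters of 6 WAA these loci had 1.37, 1 and 3.17 units and 1, 1 and 2 units, so both were detected at 6 and 7 WAA and listed at 0 at 8 WAA.

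A further 10 loci with an identifier complete the 12 lower loci with an identifier and the largest log2 differences, all at 0 in each treated library of 8 WAA. VIT_219s0014g04900 (chromosome 19, 5228982 to 5232178) had 2, 1, 2, 2 and 2 units at 7 WAA (log2 difference -1.47, limma adjusted p = 0.000524). VIT_210s0003g05680 (chromosome 10) had 2, 2, 2, 1 and 1 units at 7 WAA. VIT_209s0018g01630 (chromosome 9) had 2, 2, 1, 1 and 2 units at 7 WAA. These 3 were also at 0 in all 5 controls of 8 WAA, and VIT_210s0003g05680 passed the test in controls too. VIT_212s0057g01510 had 2, 3, 1, 1 and 2 units at 7 WAA. VIT_213s0067g02030 had 2, 2, 1, 1 and 3 units at 7 WAA. Controls of 8 WAA were at 0 in every library at both loci, and each had a value at 7 WAA in 4 of 5 controls.

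Other lower loci kept a value in 1 control library of 8 WAA. VIT_216s0039g02430 (XLOC_011662, chromosome 16) had 2, 2, 1, 2 and 3 units in treated clusters of 7 WAA, and 1 control of 8 WAA had 1.65 units. A second locus of this identifier and interval, XLOC_010963, antisense to the reference, had 2 units in replicate 4 of 8 WAA and 0 in the other 9 treated libraries of both weeks, and without a stated strand setting the 2 loci are uncertain. VIT_217s0000g09320 (chromosome 17) had 3, 2, 1, 1 and 2 units in treated clusters of 7 WAA, and 1 control of 8 WAA had 1 unit. XLOC_015549, a locus with 2 identifiers on chromosome 18, had 1, 2, 2, 2 and 1 units in treated clusters of 7 WAA, and 1 control of 8 WAA had 1 unit. Both remaining loci of these 12 sat close to the threshold. VIT_218s0072g00360 (chromosome 18) had 2, 2, 2, 1 and 5 units at 7 WAA with a limma adjusted p of 0.0339, and lost its call in 8 of 10 fits that left out 1 library. XLOC_013357 (2 identifiers, chromosome 17) had 3, 3, 2, 1 and 1 units at 7 WAA with a limma adjusted p of 0.0265, and lost its call in 6 of 10 such fits. Of the lower loci without an identifier, XLOC_005189 (chromosome 12) was at 0 in all 5 libraries of 8 WAA and had 1, 2, 1, 1 and 1 units at 7 WAA. XLOC_009560 (chromosome 14) was at 0 in each treated library of 8 WAA and had 1 unit in every one of 7 WAA. The other loci called lower had at most 3 units at 7 WAA.

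The strongest gain at 8 WAA was at XLOC_029382, which spans 2 reference identifiers, VIT_209s0054g00860 and VIT_209s0054g00880 (chromosome 9, 21709226 to 21760632). It had 5, 6, 5, 4 and 4 units at 8 WAA, against 1, 0, 0, 0 and 0 units at 7 WAA. The log2 difference was 2.32 ± 0.21 (SE), with a limma adjusted p of 0.00200. All 6 libraries of 6 WAA were at 0. Controls had 4, 4, 3, 5 and 3 units at 8 WAA, against 0, 5, 0, 4 and 0 units at 7 WAA. Among controls of 7 WAA, replicates 2 and 4 thus already stood at the level of 8 WAA, while their treated counterparts from the same plants were at 0.

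XLOC_021724 (2 identifiers, chromosome 4) and VIT_215s0048g00500 (chromosome 15, 14614497 to 14617628) each had 2, 2, 2, 1 and 2 units at 8 WAA and 0 in all 5 treated libraries of 7 WAA (log2 difference 1.47, limma adjusted p = 0.000524 for each). In controls of 7 WAA both had 2 units in replicate 2, and VIT_215s0048g00500 also had 2 units in replicate 4, with 0 in the others. VIT_216s0050g02680 (chromosome 16) had 1, 2, 1, 2 and 1 units at 8 WAA and 0 in each treated library of 7 WAA. Its controls of 7 WAA had 1 unit in replicates 2 and 4 and 0 in the rest, so the value was present in the same 2 control libraries as at XLOC_029382. VIT_201s0011g06040 (chromosome 1) had 1, 1, 2, 1 and 2 units at 8 WAA and 0 in each treated library of 7 WAA. VIT_208s0007g06440 (chromosome 8) had 1, 1, 2, 1 and 1 units at 8 WAA and 0 in each treated library of 7 WAA. XLOC_015814 (2 identifiers) had 2.09, 1, 1, 1 and 1 units at 8 WAA and 0 in each treated library of 7 WAA. These 3 loci were also at 0 in every library of 6 WAA.

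XLOC_004960 (2 identifiers, chromosome 12) had 1, 1, 2, 1 and 1 units at 8 WAA and 0 in each treated library of 7 WAA, while controls had 0, 1, 0, 0 and 0 units at 8 WAA, against 0, 1, 0, 1 and 0 units at 7 WAA. Its treated change exceeded its control change by 1.32 on the log2 scale, which did not pass after adjustment over all loci (limma unadjusted p = 0.00440, adjusted p = 0.929). The locus was chosen by that treated change, so the unadjusted p-value is a description only. VIT_213s0067g01240 (chromosome 13, 713094 to 713742) had 1 unit in every treated library of 8 WAA and 0 in each of 7 WAA, and is one of the loci whose p-value measures no spread. Close to the threshold, XLOC_020992 (3 identifiers, chromosome 4) had 1, 3, 2, 1 and 3 units at 8 WAA and 0 in each treated library of 7 WAA, with a limma adjusted p of 0.0265. VIT_200s0494g00010 had the same 10 values, and each lost its call in 5 of 10 fits that left out 1 library. VIT_200s0532g00020 had 3, 4, 5, 4 and 3 units at 8 WAA, against 1, 1, 1, 1 and 0 units at 7 WAA (limma adjusted p = 0.0406), and lost its call in 7 of 10. It was not a locus that first appeared at 8 WAA, since treated clusters of 6 WAA had 2, 2 and 3 units. Of the 29 loci chosen by the naming rule, 24 kept their call in all 10 of these fits and 5 lost it in at least 5. Among higher loci without an identifier, XLOC_004324 (chromosome 12), XLOC_009554 (chromosome 14) and XLOC_033064 (unplaced sequence) had 1 unit in every treated library of 8 WAA and 0 in each of 7 WAA.

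At 9 of the 61 called loci an identifier was shared with another assembled locus, so that values could be split between them. For XLOC_020992 this partner, XLOC_020993, was at 0 in each treated library of 8 WAA and had 0, 1, 1, 0 and 1 units at 7 WAA, the opposite direction. Loci with no reference identifier were 7 of the 61 calls (2 lower, 5 higher), or 11.5%, against 4.38% of all tested loci. No call lay on chromosome 2 or 6, and 6 of the 24 higher calls were on unplaced sequence. The share of tested loci by chromosome was not computed, so these places are a description only. Isoforms identical to a reference transcript held 56.3% of the units of the lower loci in treated libraries of 7 WAA. They held 37.9% of those of the higher loci in treated libraries of 8 WAA, against 59.9% over all loci in the 10 treated libraries. Isoforms without a reference class held 3.92% and 13.7%, against 3.21% over all loci. For the called loci these were mainly the loci with no reference identifier counted above. The longest isoform had a median of 2121 bases at lower loci and 1375 bases at higher loci, against 2243 bases over all tested loci. The higher loci were thus shorter by this median and held a smaller share of their units in isoforms identical to a reference.

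In treated clusters of 6 WAA, which the comparison did not use, 23 of the 37 lower loci were detected in 3 of 3 libraries and 18 of the 24 higher loci in 0 of 3. At 6, 7 and 8 WAA, treated libraries held 25 to 33, 37 and 1 to 2 of the lower loci. The higher loci numbered 1 to 5, 1 to 3 and 24 in the same order. The values of 7 and 8 WAA in treated clusters chose these loci and are a description. Because 7 WAA took part in the choice, some likeness of 6 WAA to 7 WAA is built in. No share over other loci with the same pattern at 7 WAA was computed, so the counts of 6 WAA are a description too.

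**Figure D2:**
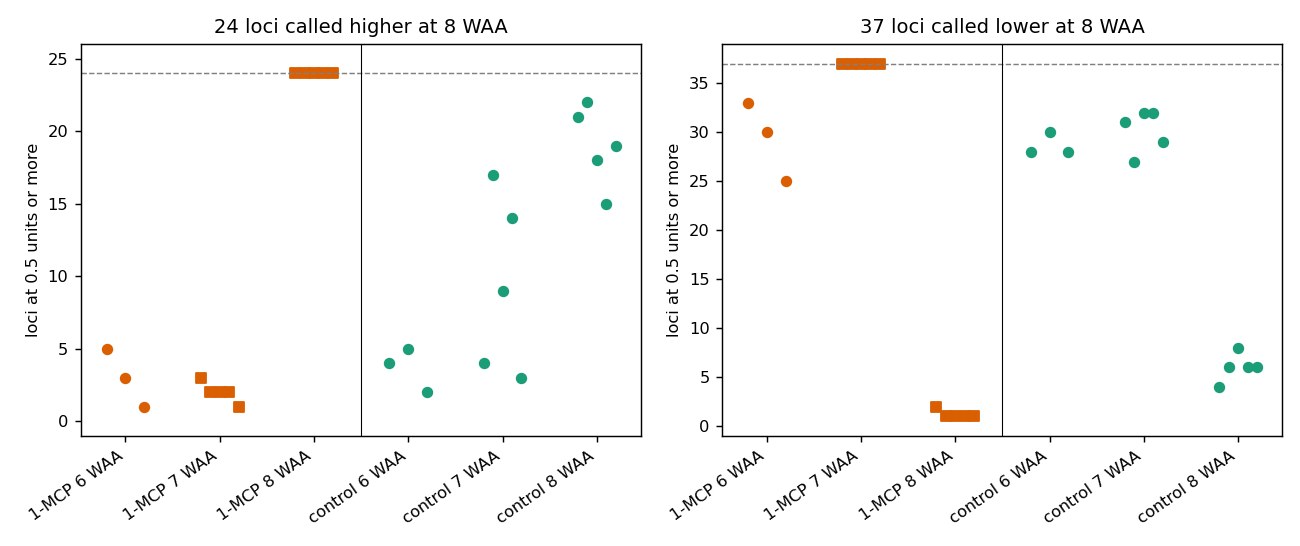
Number of the 24 loci called higher (left) and of the 37 called lower (right) at 8 WAA that reached 0.5 units, by library; points are libraries, squares the 10 libraries that chose the loci, and the dashed line the size of the set. Controls of 8 WAA held 15 to 22 of the higher loci and 4 to 8 of the lower loci, and controls of 7 WAA were spread between 3 and 17 of the higher loci.

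Most of these loci moved the same way in mock-treated clusters, whose libraries played no part in choosing them. These clusters came from the same plants and weeks as the treated ones, so they are no independent repeat. Control libraries of 8 WAA held 4, 6, 8, 6 and 6 of the 37 lower loci, against 31, 27, 32, 32 and 29 in controls of 7 WAA. Of the 24 higher loci, controls of 8 WAA held 21, 22, 18, 15 and 19, against 4, 17, 9, 14 and 3 in controls of 7 WAA. For the lower loci the weeks did not overlap, and for the higher loci they overlapped through control replicate 2 of 7 WAA, with 17, while replicate 4, with 14, came just under the lowest control of 8 WAA. By direction, 32 of 35 lower loci tested in controls were lower there by over 0.05 on the log2 scale (91.4%), and 20 of 23 higher loci were higher (87.0%). Among all loci tested in both, the same holds for 50.6% of those lower and 40.7% of those higher in treated clusters. These shares include loci with smaller treated differences than the calls, and no share among loci of like size was computed.

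In controls alone, 110 of 16389 tested loci were called, 102 lower (0.622%) and 8 higher (0.0488%). Without control replicate 2 of 7 WAA the count was 171 (144 lower, 27 higher). Loci present in no control of 8 WAA and in all 5 of 7 WAA numbered 93 (0.567%), and the opposite held for 6 (0.0366%). Between the 2 sets, 11 calls were shared, all lower, which is 11 of the 61 treated calls and 10% of the 110 control calls. Of the 102 loci called lower in controls, 98 were also lower by over 0.05 in treated clusters. Of the 8 called higher in controls, 6 could be tested in treated clusters and 5 of these were higher. No share over all loci lower or higher in controls was computed, so these counts are a description. The lower set of treated clusters was smaller than that of controls and the higher set larger, but these counts do not test a difference.

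The difference itself was tested locus by locus, as the change of treated clusters minus the change of controls in 20 libraries with a block for each plant. None of 17970 loci passed (0.0%), with a smallest limma adjusted p of 0.194 and 892 loci at an unadjusted p under 0.05. The block-free fit called 1 locus, and between 0 and 4 were called when 1 plant was left out. The locus with the smallest p, named after its values were seen, was XLOC_021964 (2 identifiers, chromosome 5). It had 1, 1, 0, 1 and 1 units in treated clusters of 8 WAA and 0 in each of 7 WAA, while controls had 0 in each library of 8 WAA and 1, 1, 1, 1 and 2 units at 7 WAA. The weekly directions were thus opposite in the 2 treatments, without passing the adjusted test. The treated change that chose the 61 called loci is itself part of this difference, so small p-values among them are partly built in. Their values are a description only. Of these 61 loci, 20 had an unadjusted limma p of the difference under 0.05, the smallest being 0.00141. That locus, VIT_207s0005g06550, also named after its values were seen, had 2 units in each treated library of 8 WAA and 3 in each of 7 WAA. In controls it had 2, 2, 2, 3 and 3 units at 8 WAA, against 2, 2, 2, 1 and 2 units at 7 WAA.

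Single libraries decided how many loci showed a clean loss between the weeks. At 108 loci, replicate 4 of 7 WAA was the only treated library of its week under 0.5 units, with all 5 of 8 WAA under it and the other 4 of 7 WAA detected. The mock-treated cluster of the same plant, control replicate 4 of 7 WAA, was detected at 91 of these 108. Control replicates 1, 2, 3 and 12 of 7 WAA were detected at 98, 56, 72 and 61 of them. Controls of 8 WAA were detected at 0 to 12 of them and treated clusters of 6 WAA at 74 to 94, and 21 of the 108 were called lower in controls. Replicate 4 of 7 WAA had the fewest detected loci of its week, 14227 against 14739 to 15225, but 22495 units, within the range of its group. Its log2 values correlated with the other 4 libraries of its group by 0.774 on average, against 0.782 to 0.798 for the others. In the other direction, replicate 1 of 8 WAA alone still held 38 loci that were under 0.5 units in the rest of 8 WAA and detected in every library of 7 WAA. Controls of 8 WAA held 5 to 10 of these 38 and controls of 7 WAA 29 to 34. With both libraries left out, an alternative chosen after seeing the data, 305 loci were called (246 lower, 59 higher), and all 61 loci were among them. The part that the lower number of detected loci had in these patterns was not tested.

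**Figure D3:**
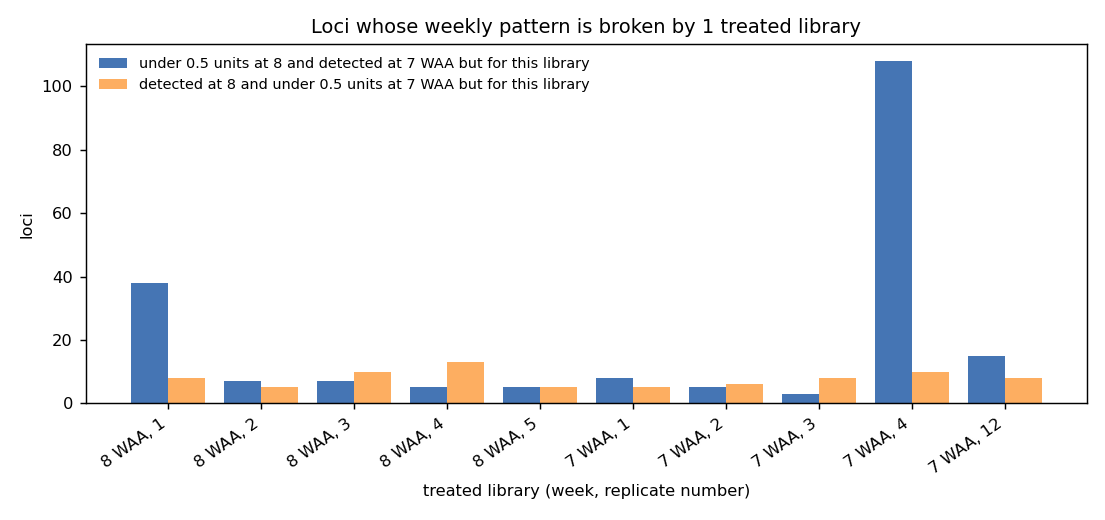
For each of the 10 treated libraries, the number of loci (y axis) that would be present in every library of one week and in none of the other were it not for that library. Replicate 4 of 7 WAA stands out with 108 loci that would be lost at 8 WAA and replicate 1 of 8 WAA with 38; the other libraries lie between 3 and 15.

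Genes of the pathways that change around ripening were followed in 16 lists of reference identifiers, recalled for this purpose, whose membership cannot be checked in the files. They held 371 loci, of which 194 could be tested and 0 were called, with a smallest limma adjusted p of 0.177 in any list. At an unadjusted p under 0.05 a few members stood out, and they are given as values. Over all tested loci the median log2 difference was 0, with 5318 loci higher and 6232 lower by over 0.05, and no list is called particular against this.

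The terpene synthase region of chromosome 18, which holds genes for volatile terpenes, had the most loci, 55 tested of 110. Its total was 83, 68, 69, 72 and 74 units at 8 WAA, against 88, 87, 84, 77 and 86 units at 7 WAA, so that all but replicate 1 of 8 WAA lay below every library of 7 WAA. Among its tested loci 17 were higher and 24 lower. The smallest p was that of VIT_218s0001g04470, with 2, 3, 3, 3 and 3 units at 8 WAA, against 2, 2, 1, 1 and 1 units at 7 WAA (limma unadjusted p = 0.00252, adjusted p = 0.177). VIT_218s0001g05380 had 1, 0, 0, 0 and 0 units at 8 WAA, against 3, 1, 1, 3 and 1 units at 7 WAA.

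Stilbene synthases produce resveratrol, a defence compound of grape. Their summed units overlapped between the weeks, with 1 library far below the others. Loci of the stilbene synthase regions (33 tested of 54) summed to 41, 37, 18, 29 and 26 units at 8 WAA, against 42, 44, 2, 39 and 37 units at 7 WAA. Replicate 3 of 7 WAA thus stood far below its group, with 2 of the 54 loci detected where the others of its week had 28 to 32. The mock-treated cluster of the same plant was at 0, and control replicate 1 of 7 WAA had 1 unit while the treated cluster of its plant had 42. In controls of 8 WAA the range was 21 to 39 units. Of the tested loci 16 were higher and 14 lower. The smallest p in the list, unadjusted 0.122 by limma, was that of VIT_216s0100g01110, with 0, 0, 1, 1 and 0 units at 8 WAA, against 1, 2, 0, 1 and 2 units at 7 WAA. VIT_216s0100g00750 had 2, 2, 2, 1 and 3 units at 8 WAA, against 1, 2, 0, 2 and 1 units at 7 WAA. The stilbene MYB regulators, transcription factors of this pathway, totalled 4, 3, 3, 3 and 3 units at 8 WAA, against 2, 2, 3, 3 and 3 units at 7 WAA. One of their 2 loci, VIT_207s0005g03340, had 1, 2, 1, 2 and 2 units at 8 WAA, against 1, 1, 0, 2 and 1 units at 7 WAA. The other, XLOC_022285, had 3, 1, 2, 1 and 1 units at 8 WAA, against 1, 1, 3, 1 and 2 units at 7 WAA.

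The list named for flavonoid backbone enzymes also held a run of neighbouring loci on chromosome 6, VIT_206s0009g02810 among them. The role of that run cannot be checked here, and the name of the list may not cover it. Totals of the list were 13, 12, 12, 11 and 11 units at 8 WAA, against 15, 13, 16, 14 and 14 units at 7 WAA. Proanthocyanidin and flavonol genes totalled 9, 9, 9, 8 and 8 units at 8 WAA, against 10, 10, 10, 9 and 10 units at 7 WAA. In these lists 5 of 11 and 3 of 9 tested loci were lower and 1 of each was higher, and the ranges of the weeks met only at their edges. The leading members were VIT_206s0009g02810, at 0 in all 5 libraries of 8 WAA and with 0, 1, 1, 0 and 1 units at 7 WAA, and VIT_207s0005g01210, with 0, 1, 0, 0 and 1 units at 8 WAA, against 1 unit in each library of 7 WAA (limma unadjusted p = 0.0346 for each). VIT_202s0025g04720 of the backbone list had 0, 1, 0, 1 and 1 units at 8 WAA, against 1 unit in each library of 7 WAA. VIT_201s0011g02960 of the tannin and flavonol list had 1, 1, 1, 0 and 0 units at 8 WAA, against 1, 2, 1, 1 and 1 units at 7 WAA. In controls, flavonoid backbone totals were 14, 14, 20, 15 and 14 units at 8 WAA, against 13, 12, 12, 15 and 16 units at 7 WAA. The control means had the opposite order of the treated means, but the weeks overlapped and 1 library of 8 WAA stood above the rest. One backbone locus, XLOC_015117 (2 identifiers, chromosome 18), named after its values were seen, was called higher in controls, with 1, 1, 2, 1 and 2 units at 8 WAA and 0 in all 5 libraries of 7 WAA (limma adjusted p = 0.00292). In treated clusters it had 0, 1, 1, 0 and 0 units at 8 WAA, against 0, 0, 0, 0 and 1 units at 7 WAA. Proanthocyanidin and flavonol totals of controls were 10, 8, 10, 9 and 7 units at 8 WAA, against 10, 10, 9, 10 and 12 units at 7 WAA, with means in the same order as in treated clusters. Anthocyanin colour genes, the genes of red skin, could hardly be followed: 7 of 9 loci were at 0 in all 10 treated libraries and 1 was tested. That one, XLOC_012012, had 5, 8, 3, 5 and 11 units at 8 WAA, against 7, 4, 7, 5 and 6 units at 7 WAA. The general phenylpropanoid enzymes that feed all these branches totalled 21.8, 14.8, 16, 17 and 21 units at 8 WAA, against 18, 21, 17, 20 and 26 units at 7 WAA. Its leading loci each differed in 2 libraries: VIT_206s0004g08150 had 1 unit in every library of 8 WAA, against 2, 2, 1, 1 and 1 units at 7 WAA, and VIT_211s0065g00350 had 1.80 units in replicates 1 and 2 of 8 WAA and 1 unit in all other libraries.

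Regulators and hormone genes had values of 0 to a few units, and their weekly totals overlapped. Ripening transition regulators totalled 9, 11, 7, 11 and 11 units at 8 WAA, against 7, 7, 7, 9 and 10 units at 7 WAA, with 4 of 7 tested loci higher and 0 lower. Its leading locus, VIT_214s0083g01050, had 1, 2, 0, 2 and 2 units at 8 WAA, against 0, 0, 1, 1 and 0 units at 7 WAA (limma unadjusted p = 0.0843). VIT_208s0007g07670 had 1, 1, 1, 1 and 2 units at 8 WAA, against 1, 1, 0, 1 and 1 units at 7 WAA. In the list for abscisic acid synthesis and breakdown, VIT_205s0051g00670 had 2, 1, 1, 1 and 2 units at 8 WAA, against 1, 1, 0, 0 and 0 units at 7 WAA (limma unadjusted p = 0.0156, adjusted p = 0.495). The list total was 10, 8, 5, 7 and 8 units at 8 WAA, against 7, 9, 5, 4 and 10 units at 7 WAA, so the weeks overlapped. VIT_218s0001g10500 of the same list had 3, 1, 0, 0 and 0 units at 8 WAA, against 1, 1, 1, 1 and 2 units at 7 WAA. For ethylene synthesis and signalling, totals were 7, 7, 10, 8 and 8 units at 8 WAA, against 9, 8, 6, 7 and 6 units at 7 WAA. VIT_211s0016g02380 of that list had 0, 1, 0, 1 and 1 units at 8 WAA and 0 in all 5 libraries of 7 WAA (limma unadjusted p = 0.0346). VIT_205s0049g00090 (XLOC_022240) had at least 1 unit in all 10 libraries, with 2 units in replicate 4 of 7 WAA as the highest. In the region of chromosome 16 that holds ethylene response factors (ERF), VIT_216s0013g00900 (XLOC_011746) had 1, 0, 1, 0 and 0 units at 8 WAA, against 2, 1, 1, 1 and 1 units at 7 WAA, and XLOC_011076 had 0, 0, 1, 1 and 1 units at 8 WAA and 0 in each library of 7 WAA. That region had 5 loci higher and 5 lower of 13 tested. Auxin-conjugating GH3 enzymes had 1 locus higher and 1 lower of 3. These were VIT_207s0005g00090, with 0, 1, 0, 1 and 1 units at 8 WAA, against 0, 0, 1, 0 and 0 units at 7 WAA, and VIT_203s0091g00310, with 1 unit in every library except 2 units in replicate 1 of 7 WAA.

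Genes of softening, sugar and defence showed no passing locus either. Sugar transport and cleavage totalled 13, 13, 11, 15 and 13 units at 8 WAA, against 13, 13, 10, 12 and 11 units at 7 WAA, with 5 of 11 loci higher and 1 lower. VIT_217s0000g00830 of that list had 1, 1, 1, 2 and 2 units at 8 WAA and 1 unit in each library of 7 WAA. VIT_218s0122g00850 had 1 unit in every library except 2 units in replicate 1 of 8 WAA. Cell wall loosening genes had 3 of 5 tested loci higher and 1 lower, with totals of 5 to 8 units in both weeks. XLOC_013673 of that list had 1, 0, 1, 0 and 2 units at 8 WAA, against 1, 2, 2, 1 and 1 units at 7 WAA, and VIT_213s0067g02930 had 1 unit in every library except 2 units in replicate 4 of 8 WAA. PR10 proteins and thaumatin-like proteins are pathogenesis-related families of the ripening berry. The PR10 region of chromosome 5 totalled 16, 15, 9, 14 and 19 units at 8 WAA, against 17, 17, 12, 18 and 18 units at 7 WAA. XLOC_021940 of that region had 2, 2, 0, 2 and 3 units at 8 WAA, against 3, 2, 3, 3 and 2 units at 7 WAA, and VIT_205s0077g01650 (XLOC_021946) had 1 unit in every library except replicate 3 of 8 WAA, which was at 0. The thaumatin-like region of chromosome 2 had 1 locus higher and 2 lower of 7 tested. VIT_202s0025g04330 (XLOC_018358) had 1 unit in every library except replicate 1 of 8 WAA, at 0, and VIT_202s0025g04320 (XLOC_018357) was at 0 in 1 library of 8 WAA and 2 of 7 WAA and had 1 unit in the others.

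**Figure D4:**
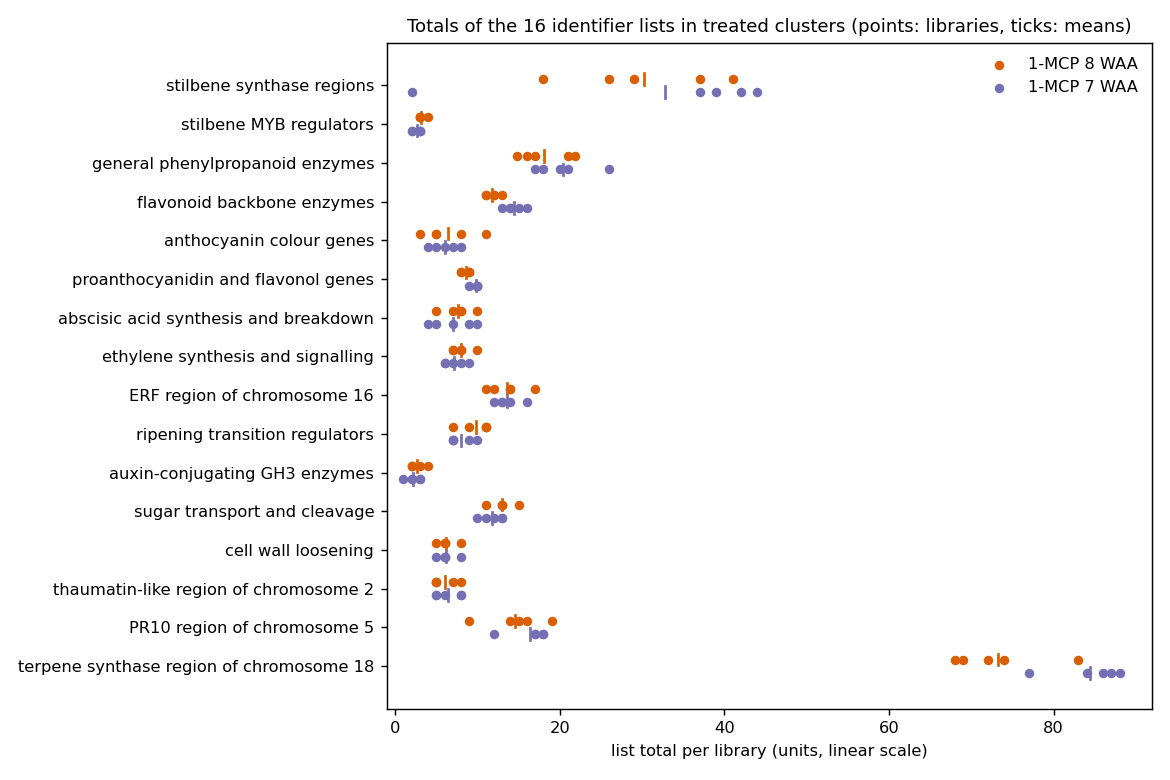
Totals of the 16 lists in the treated libraries (x axis, units), with 8 WAA above 7 WAA in each row; points are libraries and vertical ticks group means. Weeks overlap in nearly every row, the stilbene synthase regions hold 1 library of 7 WAA at 2 units beside 4 at 37 to 44, and the terpene synthase region lies mostly lower at 8 WAA.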

How the data were processed

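The 26 libraries hold RNA of berry tissue, prepared by standard Illumina methods per the labels' protocols. The authors deposited 1 value per assembled isoform and library, a signal on a scale of their own, and a table of isoform attributes whose other measure is isoform length in bases. Per the submitters' processing notes, Bowtie2 2.2.3 was used, and neither the quantifying program nor the genome build is given in the sources used here. Isoform values were summed per locus and divided by the library's step, its commonest value above 0.5. Between 99.0% and 99.3% of the treated loci sums were whole within 0.01. Values were too low and even for reads, so no count test was run.

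Loci with at least 1 unit in at least 3 of the libraries of a fit were tested with limma 3.58.1 (R 4.3.3) on log2(units + 1), unpaired, with Benjamini-Hochberg adjustment and a threshold of 0.05. The difference between treated and control changes had a plant block, since the series design gives treated and control clusters per plant. Nothing tells if a plant was sampled in more than 1 week. Library measures were compared by exact two-sided permutation tests. Lists and members were chosen with earlier results of these data known, and identifiers of the lists were recalled. Named were the 12 lower and 12 higher calls with an identifier and up to 3 each without one, by size of the log2 difference, plus the 2 smallest p of each list. Of the reference identifiers, 0 matched the RefSeq gene table. Alternatives were another pseudocount, other filters, scaling, whole units, moderation options, other sets of libraries, a replicate block and leaving out each library.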

Additional observations from a re-analysis of the deposited data

Results flagged for a closer look

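Within groups of 5 libraries, 30 values stood apart from the other 4 by a Dixon gap over 0.71 of the range, which chance gives in about 1 of 20 groups and whole numbers with 4 equal values give easily. Among list totals, these were 4 units for the stilbene MYB regulators in replicate 1 of 8 WAA, and at 7 WAA 2 units for the stilbene synthase regions in replicate 3, 12 units for the PR10 region in replicate 3 and 9 units for proanthocyanidin and flavonol genes in replicate 4. The other 26 were values of single loci, 13 in each week. The number of groups screened is not given here, so the 30 values cannot be set against 1 of 20.

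At 8 WAA, single libraries stood apart at 1 unit for XLOC_021724 and VIT_215s0048g00500 (replicate 4) and VIT_218s0001g05380 (replicate 1). They stood at 2.09 units for XLOC_015814 (replicate 1), and at 2 units for VIT_208s0007g06440 and XLOC_004960 (replicate 3), VIT_208s0007g07670 (replicate 5), VIT_218s0122g00850 and VIT_218s0001g04470 (replicate 1) and VIT_213s0067g02930 (replicate 4). A value of 0 stood apart for VIT_202s0025g04330 (XLOC_018358, replicate 1), VIT_202s0025g04320 (XLOC_018357, replicate 4) and VIT_205s0077g01650 (XLOC_021946, replicate 3).

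At 7 WAA, 5 units stood apart for VIT_204s0008g02220 (replicate 1) and VIT_218s0072g00360 (replicate 12). A value of 1 unit did for VIT_219s0014g04900 (replicate 2), XLOC_029382 (replicate 1) and VIT_207s0005g00090 (replicate 3). A value of 2 units did for XLOC_005189 and VIT_201s0011g02960 (replicate 2), VIT_218s0001g10500 (replicate 12), VIT_205s0049g00090 (XLOC_022240, replicate 4), and VIT_216s0013g00900 and VIT_203s0091g00310 (replicate 1). A value of 0 did for VIT_200s0532g00020 (replicate 12) and VIT_208s0007g07670 (replicate 3).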

How the results depend on the processing

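The 61 treated calls numbered 50 to 65 under another pseudocount, filter, scaling or moderation, with whole units, without loci constant within both weeks, and with all 13 treated libraries; with all 26 libraries 95 were called. Without constant loci, 12 of the 50 calls were higher, so the split between directions moved. Leaving out 1 library gave 70 to 195 treated calls, 117 to 171 control calls and 0 to 4 calls of the difference, library units of -1214.6 to -902.4 and detected loci of -672.05 to -422.4. Without both libraries that stand apart, an alternative chosen after seeing the data, 305 were called. With the replicate number as a block, 65 loci were called in treated clusters, but only 21 of the 61 were among them, and 24 of the 29 named loci lost their call (adjusted p 0.145 to 0.503), XLOC_029382 with a log2 difference of 2.32 and VIT_201s0010g02240 with -1.99 among them. Replicate 5 of 8 WAA and replicate 12 of 7 WAA have no partner number, so the week difference of the block fit came from replicates 1 to 4 only. The block also adds terms to the fit. What part the fewer libraries or these terms had in the lost calls was not tested. The block called 102 in controls, with 53 of the 110 among them. By a measure other than the library correlations given earlier, equal numbers of the 2 weeks correlated by -0.0103 to 0.106 in 4 pairs. The 21 other pairs had -0.0529 to 0.0480. The highest value of all was that of the pair of replicates 4, and 4 pairs cannot decide if equal numbers are the same plant. The difference had 1 call with no replicate block. Of the 61 calls, 14 passed in all 21 alternatives that tested them, but all 14 had a residual SD under 0.05, where the p-value measures no spread, and each of the 40 calls that varied was lost in at least 1 alternative. Depth is unknown, so a value of 0 does not show absence of transcript. The cause of these shifts was not tested.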
